A study of Saccharomyces cerevisiae with 210 samples.

Results

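The genes described here are 45 yeast genes of the tricarboxylic acid (TCA) cycle and the respiratory chain, chosen by name from 5656 genes measured. They fall into 6 sets: 12 TCA cycle enzymes, 4 subunits of complex II (succinate dehydrogenase), 9 of complex III (the cytochrome bc complex), cytochrome c (CYC1), 8 nuclear-encoded subunits of complex IV (cytochrome c oxidase) and 11 of the ATP synthase. All 45 were found on the array. No measured value entered the choice, but the list was put together with earlier results of these data known.

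The TCA cycle runs in the mitochondrial matrix, where it oxidises acetyl-CoA and loads electrons onto NADH and succinate dehydrogenase. Complexes III and IV pass these electrons through cytochrome c to oxygen and pump protons, and the ATP synthase uses the proton gradient to make ATP. Budding yeast has no proton-pumping complex I, ferments while glucose lasts, and holds many of these genes down by glucose repression, with the HAP transcription complex as their main activator in respiring cells. Several of the enzymes carry iron-sulfur clusters or heme, and the aconitase cluster is known as a target of oxidants.

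RNA was measured on Affymetrix Yeast Genome S98 arrays in cells labelled as strain BY4743, a diploid, grown in mid-exponential phase in 1 L fermentors. The genotypes were the yap1, glr1, gpx1, gpx2, grx1 and grx2 mutants and wild type (WT). YAP1 encodes the main peroxide-responsive transcription factor, GLR1 glutathione reductase, GPX1 and GPX2 glutathione peroxidases, and GRX1 and GRX2 glutaredoxins. Each genotype had 3 cultures given 0.19 mM CHP, read here as cumene hydroperoxide, an organic peroxide, and 3 Control cultures without it. All 6 cultures of a genotype were sampled at 0, 3, 6, 12 and 20 min, and the series design, like the labels of the cultures to be treated, places the 0 min sample just before CHP. This gives 210 arrays in 70 groups of 3. The labels call the cultures biological replicates and do not give how the mutant strains were made or whether each is 1 clone.

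Levels are log2 values, so a difference of 1 is a 2-fold change. A response is CHP minus Control at the same time, tested with limma across all genes. A gene is called when the Benjamini-Hochberg adjusted p over the 5656 genes is below 0.05. SE is the standard error of the fitted difference.

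The gene each mutant lacks was dim on that mutant's 30 arrays, with means of 3.50 to 4.61, against 5.39 to 10.28 in WT, where GPX1 was the dimmest. The gpx2 cultures went against the diploid label. The mean of 12 haploid-specific genes was 6.14 to 7.31 on the 30 gpx2 arrays and 4.31 to 5.30 on the arrays of the other 6 genotypes. At 0 min 11 of the 12 were higher in gpx2 than in WT, with a median difference of 2.40. Over all 30 arrays of each genotype, MFA2, an a-factor gene, averaged 12.05 in gpx2 and 7.05 in WT, and STE2, the alpha-factor receptor, 7.97 in gpx2 and 3.67 in WT. STE3, the a-factor receptor, was not called at 0 min (-0.01). In no other mutant was any of the 12 higher. Each comparison of gpx2 with WT below therefore also compares cultures that differ in these genes, and the mutation and this difference cannot be told apart. Of all arrays, 3 stood farthest from the other 2 of their group, by a median of 0.61 (grx2, CHP replicate 2, 20 min), 0.515 (yap1, Control replicate 1, 0 min) and 0.40 (glr1, Control replicate 3, 20 min). SRX1, a CHP-raised gene, stood at 10.99 in the WT CHP replicate 1 array at 0 min and between 5.77 and 7.28 in the other 41 arrays of that time. This value goes against a sample taken before CHP.

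**Figure D1:**
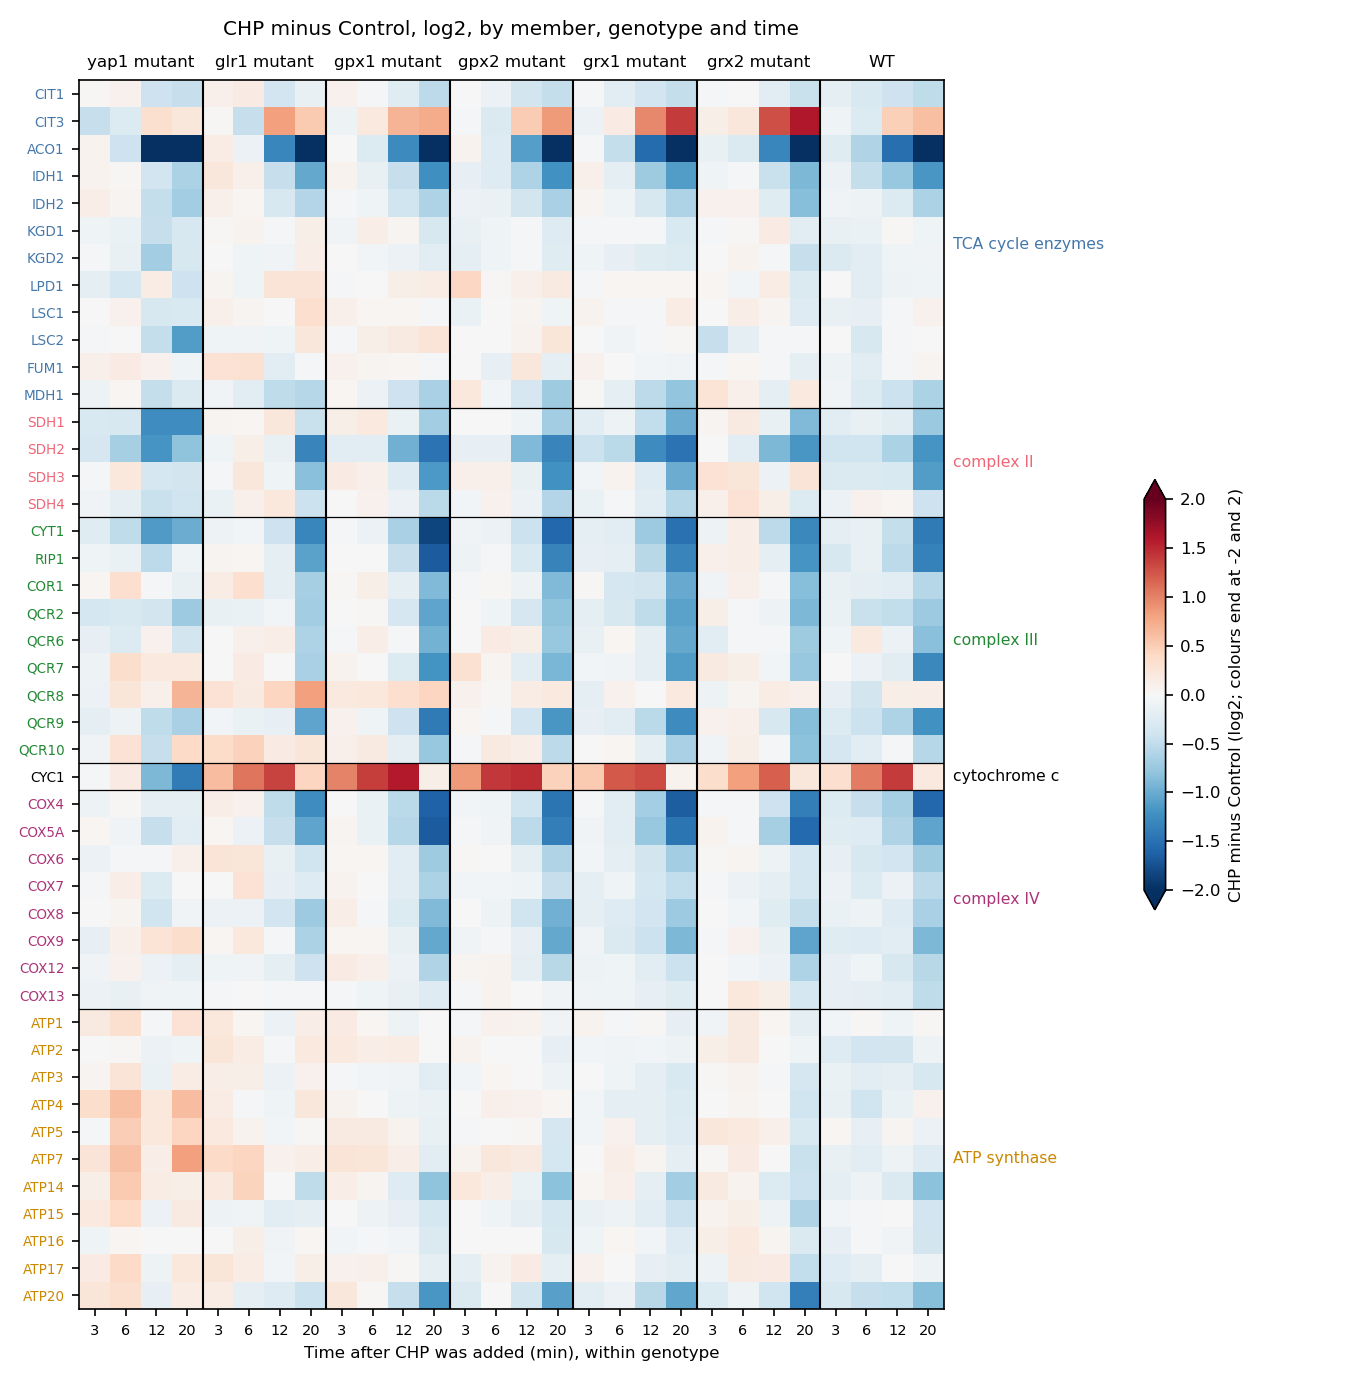
Response of the 45 genes (rows, grouped by set) in the 6 mutants and WT (column blocks, 3, 6, 12 and 20 min within each). Colour is CHP minus Control on the log2 scale, from blue (lower with CHP) to red (higher), with colours ending at -2 and 2. The blue of complexes II, III and IV at 20 min appears in 6 genotypes and is largely missing for complexes III and IV in yap1, where CYC1 is blue instead of red at 12 min.

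In WT, CHP lowered most of the respiratory chain by 20 min and left most of the ATP synthase and the middle of the TCA cycle without a call. Of the 45 genes 27 were lower and 1 higher with CHP, with a median response of -0.55. Over all 5656 genes 21.9% were called lower and 16.7% higher, with a median of -0.04. By set, the lower calls were 5 of 12 TCA cycle enzymes, 4 of 4 complex II subunits, 7 of 9 complex III subunits, 8 of 8 complex IV subunits, 3 of 11 ATP synthase subunits, and not CYC1. In these bulk cultures, fewer cells holding a transcript and fewer copies per cell cannot be told apart.

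**Figure D2:**
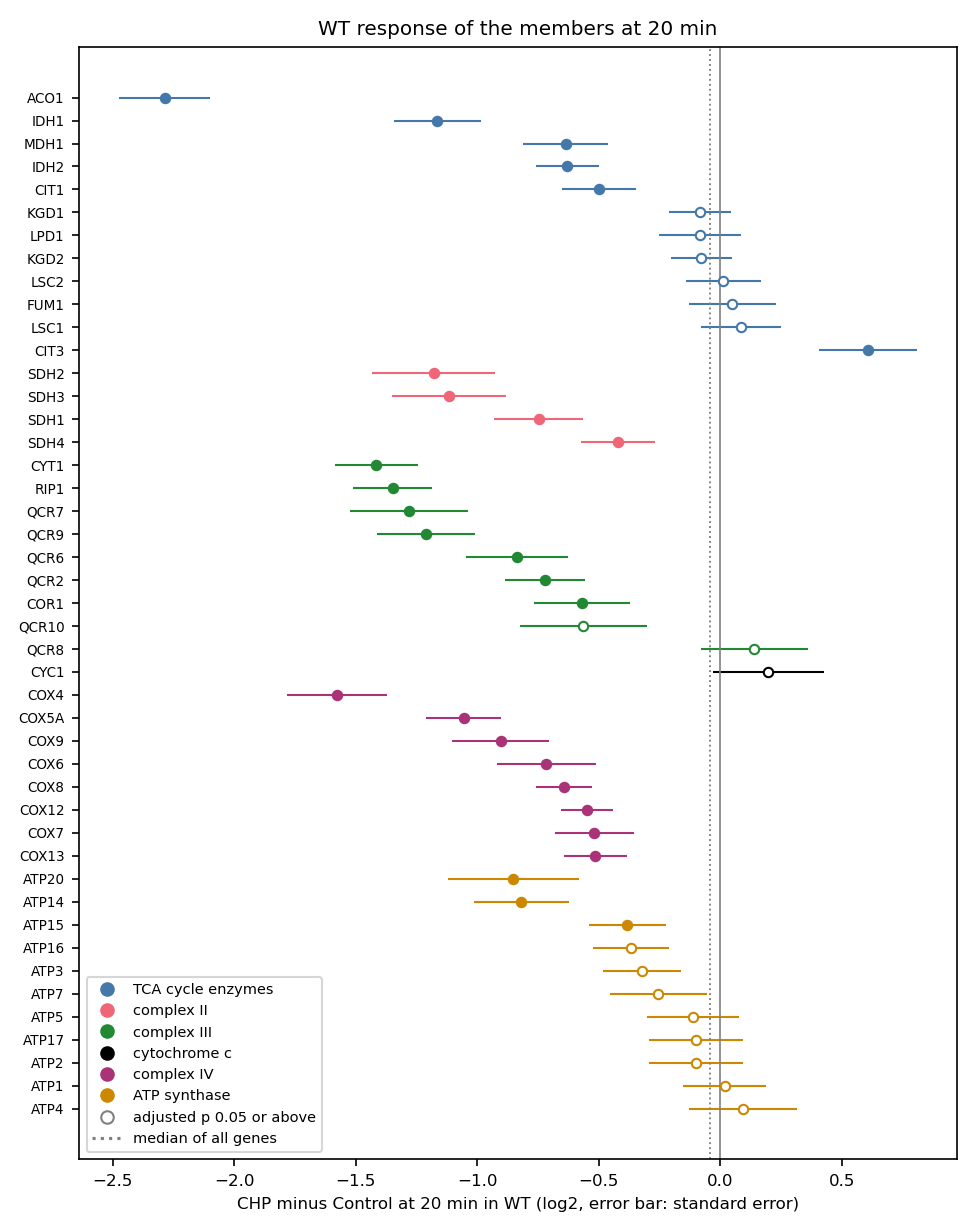
WT response at 20 min of each gene (points, coloured by set; error bars are the standard error; open points have an adjusted p of 0.05 or above). The dotted line is the median of all genes, -0.04. ACO1 lies lowest at -2.29, all complex II and IV points are filled and left of 0, and the ATP synthase points crowd towards 0.

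ACO1, mitochondrial aconitase, which converts citrate to isocitrate, had the largest fall of the list. It stood at 9.09, 8.79 and 8.59 in WT CHP cultures at 20 min, against 11.42, 11.29 and 10.62 in WT Control cultures. Every CHP culture was more than 1 unit below every Control culture, a response of -2.29 (SE 0.19, adjusted p 3.42e-22). It was the first of the list to be called lower, by 0.60 at 6 min, when 8.68% of all genes were. That early call was lost without any one of CHP replicates 2 (-0.58) and 3 (-0.51) or Control replicates 1 (-0.56) and 2 (-0.46). At 12 min the response was -1.51.

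The 2 subunits of isocitrate dehydrogenase, the next step, also fell. IDH1 stood at 8.69, 8.71 and 8.77 in CHP cultures and at 10.14, 9.96 and 9.56 in Control cultures, so the groups did not overlap (response -1.16, SE 0.18). IDH2 fell by 0.63 and MDH1, malate dehydrogenase, by 0.64. CIT1, the main citrate synthase, fell by 0.50, but most of this came from CHP replicate 3, which stood at 10.46 against 11.39 and 11.24 in the other CHP cultures. Without that culture the CIT1 response was -0.22 (adjusted p 0.327).

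The steps from alpha-ketoglutarate to succinate were not called. KGD1 and KGD2 of the alpha-ketoglutarate dehydrogenase responded by -0.08 each, and LPD1, another component of that enzyme, by -0.08. The succinyl-CoA ligase subunits LSC1 and LSC2 responded by 0.08 and 0.01. FUM1, fumarase, gave 0.05. The standard errors of these 6 ran from 0.13 to 0.18.

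CIT3, a second mitochondrial citrate synthase, went the other way. It stood at 5.63, 5.19 and 5.43 in CHP cultures and at 5.0, 4.71 and 4.72 in Control cultures at 20 min, with no overlap (response 0.61, SE 0.20, adjusted p 0.00996). Its signal was dim throughout, with a mean of 4.65 over the 210 arrays in a table that runs from 1.59 to 14.57. Without CHP replicate 1 the response was 0.50 (adjusted p 0.0701).

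All 4 subunits of complex II, which oxidises succinate, were lower. SDH2, the iron-sulfur subunit, stood at 8.67, 8.32 and 8.28 in CHP cultures and at 9.72, 9.82 and 9.26 in Control cultures (response -1.18, SE 0.25). SDH3, a membrane anchor, stood at 8.90, 8.76 and 8.59 in CHP cultures and at 10.13, 9.68 and 9.78 in Control cultures (response -1.12, SE 0.23). Neither gene's groups overlapped. SDH1, the flavoprotein subunit, fell by 0.75, and SDH4, the other anchor, by 0.42. The SDH4 call was lost without CHP replicate 1 (-0.39), CHP replicate 3 (-0.41) or Control replicate 1 (-0.39), and after arrays were centred (-0.32).

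In complex III CYT1 and RIP1 had the largest falls of the 9 nuclear-encoded subunits, with QCR7 close behind. CYT1, the cytochrome with a covalent heme, stood at 7.70, 7.21 and 7.02 in CHP cultures and at 8.95, 8.60 and 8.63 in Control cultures (response -1.42, SE 0.17). RIP1, the Rieske iron-sulfur protein, stood at 8.64, 7.97 and 8.16 in CHP cultures and at 9.65, 9.83 and 9.33 in Control cultures (response -1.35, SE 0.16). Both were fully separated between the groups. Cytochrome b, the other subunit with redox centres, is encoded in mitochondrial DNA, and COB gave 0.28 (adjusted p 0.683, not called).

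Among the other complex III genes QCR7 (-1.28), QCR9 (-1.21), QCR6 (-0.84), QCR2 (-0.72) and COR1 (-0.57) fell. COR1 lost its call without CHP replicate 2 (-0.54) or Control replicate 1 (-0.50). QCR10 responded by -0.56 with a larger standard error (0.26, adjusted p 0.0757) and was not called. QCR8 gave 0.14 by its brighter probe set and -0.50 by its dimmer one, so its direction depends on the probe set used.

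**Figure D3:**
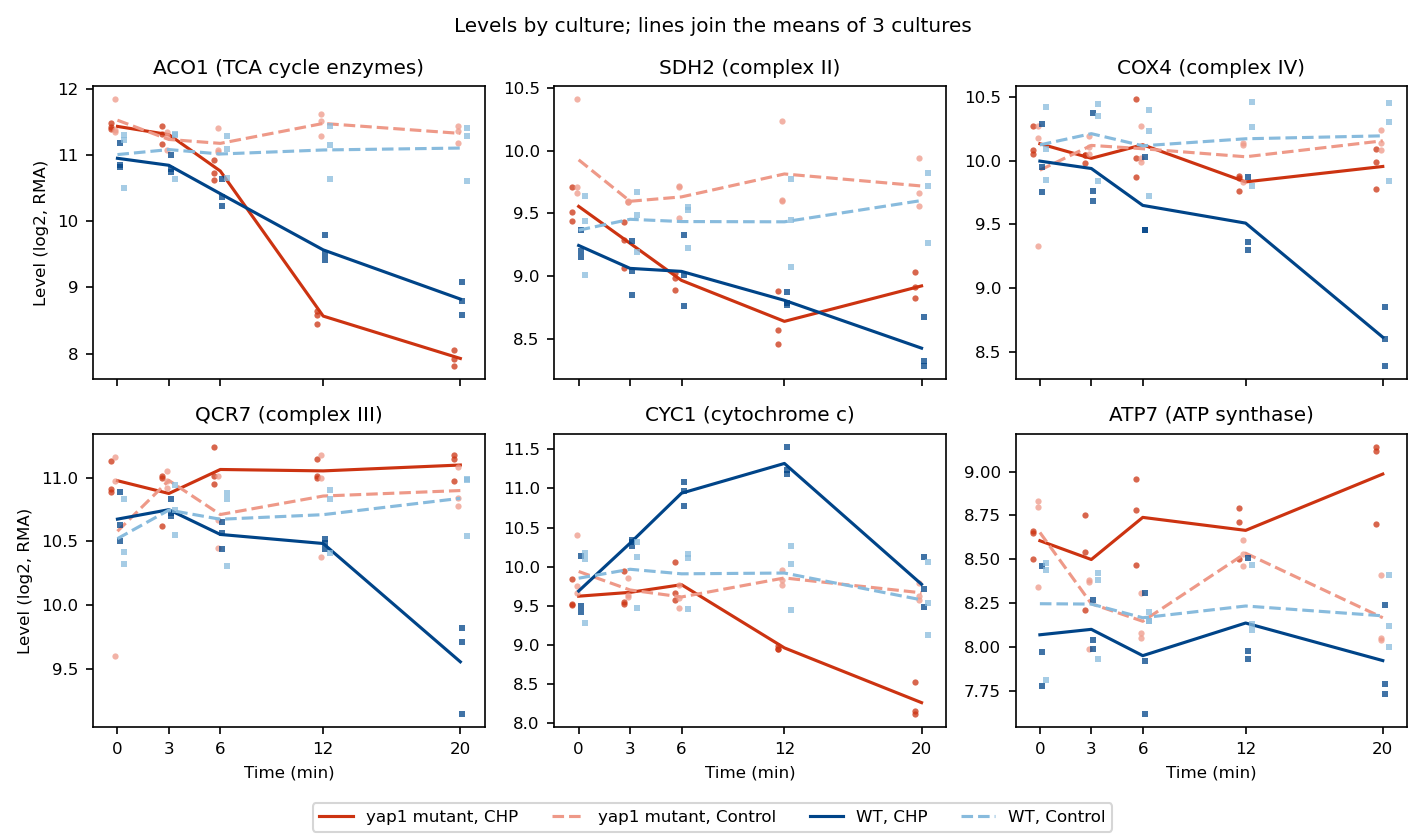
Level (log2) of 6 genes over 0 to 20 min in yap1 mutant cultures (red) and WT cultures (blue); dark symbols and solid lines are CHP, pale symbols and dashed lines Control, each symbol 1 culture, lines joining means of 3. ACO1 falls in both genotypes, COX4 and QCR7 fall in WT CHP cultures and stay near the Control level in those of yap1, and CYC1 rises to 12 min in WT CHP cultures and falls in those of yap1.

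CYC1, the main cytochrome c that carries electrons from complex III to complex IV, moved against its partners and then returned. At 12 min it stood at 11.53, 11.23 and 11.19 in WT CHP cultures, against 10.03, 10.27 and 9.45 in WT Control cultures. All CHP cultures were above all Control cultures. The response was 0.33 at 3 min (not called), 1.03 at 6 min (adjusted p 0.000479), 1.40 at 12 min (SE 0.23, adjusted p 1.63e-07) and 0.20 at 20 min (not called). Of all genes 4.05% were called higher at 6 min and 10.7% at 12 min, and CYC1 was the only one of the 45 in either count.

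All 8 complex IV subunits were lower at 20 min. COX4 stood at 8.85, 8.60 and 8.39 in CHP cultures and at 10.45, 10.30 and 9.84 in Control cultures (response -1.58, SE 0.21, adjusted p 5.35e-11). COX5A, the aerobic form of subunit V, stood at 8.50, 8.25 and 8.23 in CHP cultures and at 9.76, 9.35 and 9.04 in Control cultures (response -1.06, SE 0.15). The groups did not overlap for either gene. The other 6 ran from -0.51 for COX13 to -0.90 for COX9, with COX6 at -0.72, COX8 at -0.64, COX12 at -0.55 and COX7 at -0.52. COX7 lost its call without CHP replicate 3 (-0.21) or Control replicate 1 (-0.36).

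Of the complexes the ATP synthase had the median nearest 0, at -0.26, against -0.93 in complex II, -0.84 in complex III and -0.68 in complex IV. The median of the TCA cycle enzymes was nearer 0, at -0.08. The 3 subunits called lower were ATP20, ATP14 and ATP15. ATP20, which takes part in joining the enzyme into dimers, stood at 5.71, 5.38 and 5.48 in CHP cultures and at 6.43, 6.64 and 6.05 in Control cultures (response -0.85, SE 0.27). ATP14 stood at 9.17, 8.83 and 8.36 in CHP cultures and at 9.80, 9.55 and 9.48 in Control cultures (response -0.82, SE 0.19), and its second probe set gave -0.83. Both were without overlap.

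ATP15 fell by 0.38 (adjusted p 0.0455), a call lost without any one of 5 of the 6 WT cultures, all but Control replicate 1 (-0.25 to -0.42). The subunits ATP1 and ATP2 gave 0.02 and -0.10. The other 6 uncalled subunits ran from -0.37 (ATP16, adjusted p 0.0505) to 0.09 (ATP4).

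The fall came late. At 3 min 0 of the 45 genes were called by limma and 1 had an unadjusted p below 0.05, with 0.778% of all genes called in either direction. At 12 min 11 were lower (19.5% of all genes), with responses of -1.51 for ACO1, -0.75 for IDH1 and -0.66 for COX4. In the test of the response at 20 min minus that at 6 min, 13 were lower and CIT3 higher (8.77% of all genes lower), led by ACO1 (-1.69), CYT1 (-1.26), RIP1 (-1.20), QCR7 (-1.16) and COX4 (-1.11).

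At 12 min, leaving out CHP replicate 3 took the count of 11 to 4. It was 6 without CHP replicate 2, 6 without Control replicate 1 and 5 without Control replicate 2. With centred arrays 6 were lower and 2 higher. Of the 11, only ACO1 kept its call when each gene's CHP minus Control difference at 0 min was subtracted, with IDH1 at -0.57 (adjusted p 0.128) and COX4 at -0.53 (adjusted p 0.242). The late count of 13 fell to 7 without CHP replicate 3 and 8 without Control replicate 3. The count of 27 at 20 min stayed between 23 and 28 with any one culture left out. It fell to 17 when each gene's CHP minus Control difference at 0 min was subtracted, where limma called 0 of the 45 and 36 lay below 0. With the high-SRX1 WT array at 0 min also left out, an alternative chosen after seeing the data, it was 14.

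In the yap1 mutant the same 45 genes split differently. At 20 min 15 were lower and 4 higher with CHP, with a median of -0.15 against -0.10 over all genes. Of all genes 26.3% were lower and 18.2% higher, so the count of lower genes stands near that share. The lower genes were 8 of 12 TCA cycle enzymes, 3 of 4 complex II subunits, 3 of 9 complex III subunits and CYC1. None of 8 complex IV subunits (0 at an unadjusted p below 0.05) and none of 11 ATP synthase subunits was lower by limma. Higher were QCR8 (0.69) and the ATP synthase stalk subunits ATP7 (0.82), ATP4 (0.62) and ATP5 (0.43). With centred arrays the split was 11 lower and 5 higher. Of the lower genes, single yap1 cultures decided the calls of KGD1 (-0.24 to -0.26 without CHP replicate 2 or Control replicates 1 or 2), KGD2 (-0.25 without CHP replicate 1 or Control replicate 2) and LPD1 (-0.37 to -0.42 without CHP replicates 1 or 2 or Control replicate 2). The same holds for CIT1 (-0.31 without CHP replicate 3, -0.37 without Control replicate 2), IDH1 (-0.45 without Control replicate 2) and SDH4 (-0.28 to -0.40 without any one of 4 cultures: CHP replicates 1 and 3, Control replicates 1 and 3).

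ATP7 stood at 8.70, 9.12 and 9.14 in yap1 CHP cultures at 20 min, against 8.05, 8.41 and 8.04 in yap1 Control cultures, with no overlap. ATP4 stood at 9.08, 9.18 and 8.96 in CHP cultures and at 7.89, 8.78 and 8.68 in Control cultures, where replicate 1 is the low one. Without Control replicate 1 ATP4 responded by 0.34 (adjusted p 0.239), and without CHP replicate 2 by 0.57 (adjusted p 0.0616). ATP5 lost its call without CHP replicates 2 or 3 or Control replicates 1 or 3 (0.31 to 0.41). QCR8 stood at 10.82, 11.00 and 10.77 in CHP cultures and at 10.07, 10.46 and 10.01 in Control cultures, but its dimmer probe set gave -0.18.

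Whether yap1 and WT responded differently was tested directly, as the yap1 response minus the WT response. At 20 min 11 genes were higher in this difference (11.5% of all genes) and 3 lower (11.7%), with a median of 0.42 against -0.02 over all genes. The 11 are 3 complex III subunits, 5 complex IV subunits and 3 ATP synthase subunits, and the 3 are ACO1, LSC2 and CYC1.

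**Figure D4:**
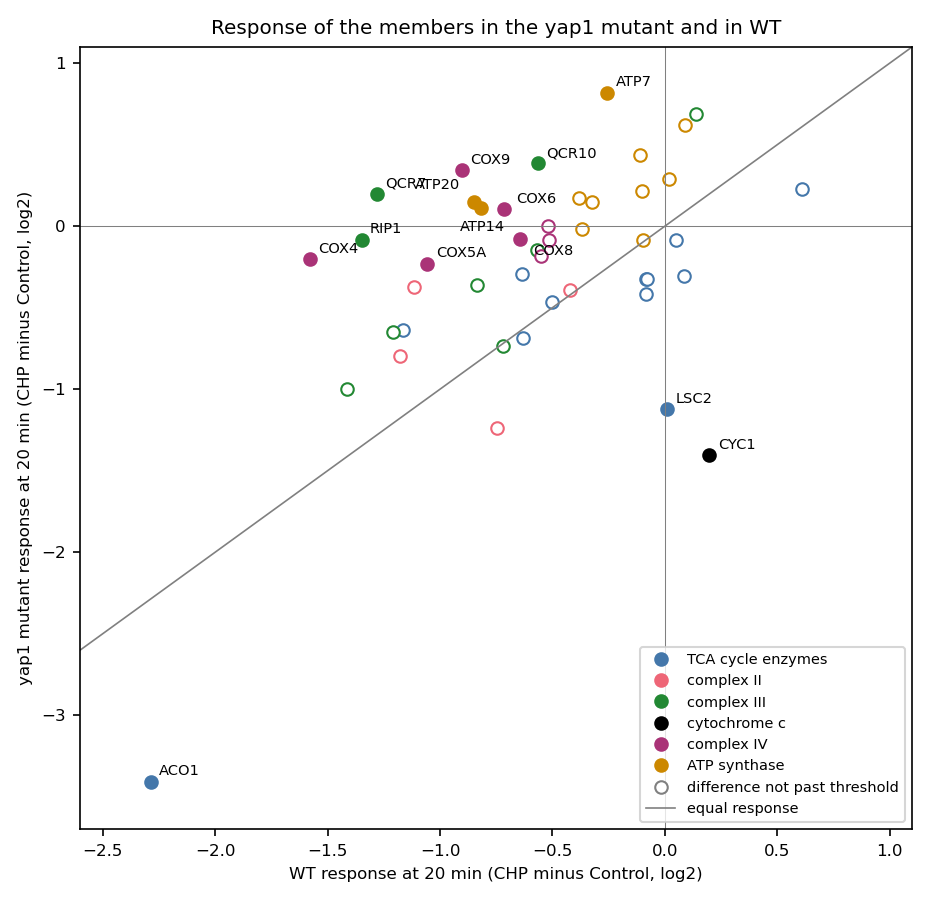
Response at 20 min in the yap1 mutant (vertical axis, log2) against WT (horizontal axis, log2), 1 point per gene, coloured by set; filled and named points differ between the genotypes in the limma test, and the line marks equal responses. Both axes use cultures of their own. Complex III, complex IV and ATP synthase points lie above the line at left, while ACO1, LSC2 and CYC1 lie below it.

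Among the 5 with the largest positive differences, the yap1 groups overlapped in 3, and the WT groups overlapped in ATP7. QCR7 stood at 10.97, 11.15 and 11.18 in yap1 CHP cultures, against 10.84, 11.08 and 10.78 in yap1 Control cultures. In WT it stood at 9.82, 9.71 and 9.15 in CHP cultures, against 10.98, 10.99 and 10.54 in Control cultures. The difference of response was 1.48 (SE 0.34, adjusted p 0.000365).

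COX4 stood at 9.78, 9.99 and 10.09 in yap1 CHP cultures, against 10.14, 10.24 and 10.08 in yap1 Control cultures, which overlap. Beside the WT values above, the difference of response was 1.38 (SE 0.29, adjusted p 9.85e-05). RIP1 stood at 9.40, 9.61 and 9.53 in yap1 CHP cultures and at 9.66, 9.78 and 9.35 in yap1 Control cultures, again overlapping (difference 1.27, SE 0.23, adjusted p 4.49e-06).

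COX9 stood at 10.61, 10.77 and 10.60 in yap1 CHP cultures and at 10.30, 10.44 and 10.22 in yap1 Control cultures, slightly higher with CHP. In WT it stood at 9.40, 9.28 and 9.36 in CHP cultures and at 10.56, 10.42 and 9.76 in Control cultures (difference 1.25, SE 0.28). ATP7 stood at 8.24, 7.73 and 7.79 in WT CHP cultures and at 8.41, 8.0 and 8.12 in WT Control cultures, so its difference of 1.08 (SE 0.28) comes mainly from the yap1 cultures given above.

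The remaining positive differences were ATP20 (1.00), QCR10 (0.95), ATP14 (0.93), COX5A (0.83), COX6 (0.82) and COX8 (0.57). Of these, 4 depended on single cultures. ATP14 lost its call without WT CHP replicate 3 (0.72), and COX6 without WT CHP replicate 3, WT Control replicates 1 or 2, yap1 CHP replicate 2 or yap1 Control replicate 3 (0.69 to 0.77). ATP20 (0.78 to 0.98) and QCR10 (0.72 to 1.00) lost theirs without most single cultures. The count of 11 fell to 7 without WT CHP replicate 3.

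Subtracting each gene's CHP minus Control difference at 0 min left 4 genes higher in the difference, of which RIP1 (1.28), COX8 (0.71) and ATP14 (1.14) are among the 11. This subtraction brings in the yap1 Control replicate 1 array at 0 min, where COX4 stood at 9.33, QCR7 at 9.60 and COX9 at 9.07. The other 2 arrays of that group stood at 10.27 and 10.18 for COX4, 11.16 and 10.97 for QCR7, and 10.45 and 10.29 for COX9. Without that array the subtraction also left 4, namely RIP1 (1.16), QCR7 (1.73), COX4 (1.34) and COX9 (1.16), and with the high-SRX1 WT array left out instead it left 2, RIP1 (1.17) and COX8 (0.69). RIP1 alone of the 11 was called in all 3 versions, of which the second and the third were chosen after seeing the data.

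CYC1, LSC2 and ACO1 were lower in the difference, each without a change of call when any one culture was left out or the 0 min difference was subtracted. CYC1 stood at 8.15, 8.52 and 8.12 in yap1 CHP cultures at 20 min, against 9.63, 9.79 and 9.58 in yap1 Control cultures. In WT it stood at 10.13, 9.48 and 9.72 in CHP cultures, against 10.06, 9.54 and 9.13 in Control cultures, which overlap. The difference of response was -1.60 (SE 0.33, adjusted p 4.53e-05).

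LSC2, the beta subunit of succinyl-CoA ligase, stood at 7.94, 8.0 and 7.91 in yap1 CHP cultures, against 9.06, 9.03 and 9.13 in yap1 Control cultures. Its WT values were 9.33, 9.12 and 9.33 in CHP cultures and 9.21, 9.29 and 9.25 in Control cultures, so the separation in yap1 had no counterpart in WT (difference -1.13, SE 0.22, adjusted p 1.74e-05). ACO1 stood at 8.06, 7.81 and 7.91 in yap1 CHP cultures and at 11.19, 11.45 and 11.37 in yap1 Control cultures, a response of -3.41 and a difference from WT of -1.12 (SE 0.27, adjusted p 0.000507).

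At 12 min the difference was called in 1 direction. In yap1 16 of the 45 were lower at 12 min (16% of all genes). Among these 16 were RIP1, COX5A and COX8, which were not called in yap1 at 20 min. The calls of COX5A and COX8 at 12 min were lost without single cultures. Those of RIP1, COX5A and COX8 were lost when the 0 min difference was subtracted. The difference of response called 6 lower (9.39% of all genes) and 0 higher (13.1% of all genes) by limma. The count of 6 is not far from its all-gene share. At an unadjusted p below 0.05 there were 8 of the 45 in either direction. The 6 were CYC1, ACO1, SDH1, CYT1, KGD2 and KGD1. CYC1 stood at 8.99, 8.95 and 8.95 in yap1 CHP cultures at 12 min, against 9.96, 9.83 and 9.77 in yap1 Control cultures, opposite to the rise in WT (difference -2.29, SE 0.33, adjusted p 4.11e-09). With the 0 min difference subtracted, the CYC1 response within yap1 was -0.58 (adjusted p 0.23, not called). Its difference from WT kept its call under that subtraction.

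ACO1 stood at 8.59, 8.65 and 8.45 in yap1 CHP cultures at 12 min, against 11.52, 11.30 and 11.63 in yap1 Control cultures (difference -1.41). SDH1 stood at 7.97, 8.02 and 8.12 in yap1 CHP cultures and at 9.16, 9.09 and 9.60 in yap1 Control cultures. In WT it stood at 8.80, 8.77 and 8.78 in CHP cultures and at 9.26, 8.79 and 8.94 in Control cultures (difference -1.02, SE 0.26). CYT1 (-0.65), KGD2 (-0.61) and KGD1 (-0.48) followed. CYT1 and KGD1 lost their calls without most single cultures (-0.51 to -0.66 and -0.37 to -0.49). KGD2 lost its call without yap1 CHP replicate 3 (-0.46), when the count fell to 3. After each gene's 0 min difference was subtracted, SDH1 (-0.58), CYT1 (-0.89) and KGD1 (-0.33) were no longer called.

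At 6 min only ATP4 differed between yap1 and WT (1.00, with 4.49% of all genes higher), and the call was lost without any one of 7 of the 12 cultures (0.82 to 0.98): WT CHP replicates 2 and 3, WT Control replicate 2, yap1 CHP replicates 2 and 3, and yap1 Control replicates 1 and 3.

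At 0 min 4 of the 45 were higher in the yap1 cultures later given CHP than in yap1 Control cultures (4.86% of all genes). Without the Control replicate 1 array, an alternative chosen after seeing the data, limma called 0, and likewise without CHP replicate 2 or CHP replicate 3.

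With all arrays, the counts in the other 5 mutants lay near that of WT. At 20 min 21 of the 45 genes were lower in glr1 (26.7% of all genes), 27 in gpx1 (26.3%), 25 in gpx2 (24.1%) and 28 in grx1 (26%). In grx2 27 were lower, where more of all genes were called lower than in the others (39.3%). Lower calls in complex IV were 5 of 8 in glr1 and 7 of 8 in each of the other 4, and in complex III 7 of 9 in glr1 and gpx2 and 8 of 9 in gpx1, grx1 and grx2. In the ATP synthase they were 1 of 11 in glr1, 2 in gpx1 and gpx2, 3 in grx1 and 5 in grx2. Without the 20 min array of grx2 CHP replicate 2, the grx2 counts were 4 in complex IV, 4 in complex III and 2 in the ATP synthase. Without that of glr1 Control replicate 3, the glr1 counts were 4, 5 and 0. With the whole culture left out, the lower count among the 45 was 16 in grx2 without CHP replicate 2. It was also 16 in glr1 without Control replicate 3, so these 2 counts near that of WT depended on single cultures.

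Across genotypes, 8 genes were lower at 20 min in all 7: ACO1, IDH1, IDH2, SDH1, SDH2, CYT1, QCR2 and QCR9. Another count, of genes lower in each of the 6 genotypes other than yap1, was 18, and it adds RIP1, COR1, QCR6, QCR7, COX4, COX5A, COX8, COX9, COX12 and ATP14. Without the 20 min arrays of grx2 CHP replicate 2 and glr1 Control replicate 3 the 8 became 7, without SDH1, and the 18 became 12, an alternative chosen after seeing the data. Of those 12, MDH1 was not among the 18. Of the 27 genes lower in WT, 10 were also called lower in yap1 and 17 were not called there, among them all 8 of complex IV. A lack of call is not a test of a difference, and the direct test above called 9 of these 17. Each genotype here has Control cultures of its own. The counts of this paragraph were made for the listed genes only. The same counts over all genes were not made, so whether the listed genes share calls more often than others was not tested.

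ACO1 fell in every genotype at 20 min, with responses of -3.41 in yap1, -2.18 in glr1, -2.24 in gpx1, -2.25 in gpx2, -2.87 in grx1, -2.99 in grx2 and -2.29 in WT (SE 0.19 each). CYC1 responded at 12 min by -0.89 in yap1, 1.36 in glr1, 1.59 in gpx1, 1.47 in gpx2, 1.30 in grx1, 1.19 in grx2 and 1.40 in WT (SE 0.23 each), and yap1 was the only genotype below 0. By 20 min the CYC1 response was -1.40 in yap1 and between 0.07 and 0.45 elsewhere, with no call in those 6. Without the 20 min array of grx2 CHP replicate 2, however, the grx2 response of CYC1 was 0.66 (adjusted p 0.0154), a higher call. COX4 responded at 20 min by -0.20 in yap1, -1.25 in glr1, -1.61 in gpx1, -1.46 in gpx2, -1.65 in grx1, -1.38 in grx2 and -1.58 in WT (SE 0.21 each). Without the grx2 array that stood apart, grx2 gave -2.74 for ACO1 and -1.08 for COX4, and without the glr1 array, glr1 gave -2.04 for ACO1 and -0.90 for COX4, all 4 still called. CIT3 was called higher in glr1 (0.52), gpx1 (0.74), gpx2 (0.85), grx1 (1.39), grx2 (1.60) and WT (0.61), and gave 0.23 in yap1 without a call. Its median at 0 min lay between 4.22 and 4.42 in the mutants and at 4.68 in WT. The mutant medians are within the range of deleted genes in their own mutants (means of 3.50 to 4.61). The sizes of these CIT3 responses are therefore not exact.

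The direct test against WT at 20 min called 0 of the 45 genes in glr1 (5.07% of all genes), gpx1 (0.177%), gpx2 (0.283%) and grx1 (0.76%) by limma. At an unadjusted p below 0.05 the counts were 3, 1, 1 and 2. All 6 of these comparisons share the WT cultures.

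In grx2 the test called 4 genes (28% of all genes): SDH3 (1.38), CIT3 (0.99) and MDH1 (0.84) higher and ACO1 (-0.70) lower. SDH3 stood at 10.39, 12.23 and 9.57 in grx2 CHP cultures, against 10.68, 10.50 and 10.22 in grx2 Control cultures. MDH1 stood at 10.77, 12.28 and 10.31 in grx2 CHP cultures, against 10.96, 10.83 and 10.98 in grx2 Control cultures. In both the high value is CHP replicate 2, the array that stood farthest from its group. Without it the differences were 0.63 for SDH3, 0.25 for MDH1 and -0.45 for ACO1, none called, and the count of lower genes in the grx2 response was 16. CIT3 stood at 5.51, 5.66 and 5.53 in grx2 CHP cultures, against 3.99, 4.15 and 3.76 in grx2 Control cultures, and its difference without that array was 0.94 (adjusted p 0.0195). These Control values lie within the range of the deleted genes in their own mutants (means of 3.50 to 4.61), so the CIT3 signal there cannot be told from background and the size of its differences is not exact.

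In glr1 the 20 min array of Control replicate 3 stood apart. Without that array, an alternative chosen after seeing the data, LSC1 (0.55), LSC2 (0.46), LPD1 (0.44) and ATP4 (0.63) were called higher in glr1. With all arrays they were not called. The count of 21 lower genes was 16 without the cultures of Control replicate 3 and 14 without the 20 min arrays of Control replicates 2 and 3, an alternative chosen after seeing the data. The glr1 call of CIT3 was lost in the second case (0.04, adjusted p 0.915) and without CHP replicate 2 (0.27), CHP replicate 3 (0.30) or Control replicate 2 (0.19).

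The genes also differed between genotypes at 0 min. With 6 cultures of a mutant against 6 of WT, 28 of the 45 were higher in gpx1 (16.4% of all genes), 19 in gpx2 (6.31%), 25 in grx1 (12.2%), 31 in grx2 (16.8%) and 6 in yap1 (9.14%). In gpx2 11 of the 12 haploid-specific genes were higher in the same comparison, and their part in its count was not tested. In glr1 limma called 0 (0.0707% of all genes in either direction), with 9 at an unadjusted p below 0.05. KGD1 was the only gene of the 45 called lower, in gpx2 (-0.32, with 11.3% of all genes lower) and grx1 (-0.30, with 9.34%). None of the 45 was called lower in gpx1, grx2 or yap1, where 12.6%, 12.3% and 3.08% of all genes were.

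**Figure D5:**
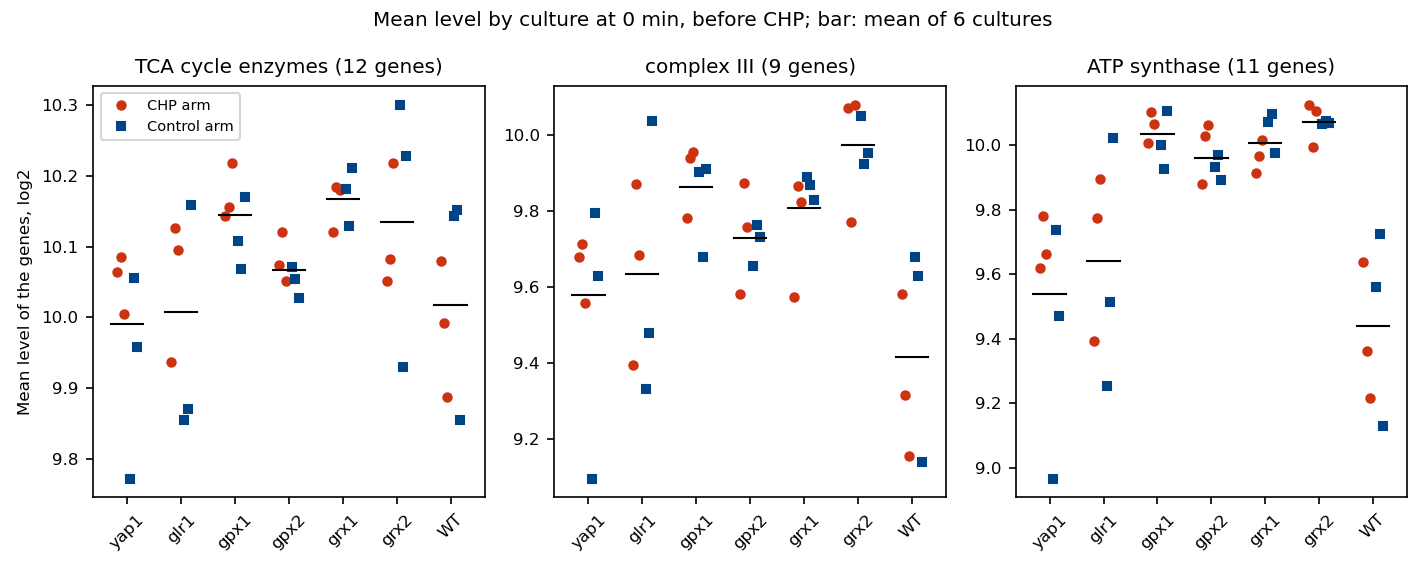
Mean level (log2) of the TCA cycle enzymes, complex III and the ATP synthase in each culture at 0 min, by genotype, with the cultures later given CHP as red circles and Control cultures as blue squares; black bars are means of 6. For the ATP synthase every gpx1, gpx2, grx1 and grx2 culture lies above every WT culture, and the single lowest symbol is a yap1 Control culture.

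Of the ATP synthase all 11 subunits were higher in gpx1, grx1 and grx2 and 8 of 11 in gpx2, while of 12 TCA cycle enzymes 3 were higher in gpx1, 1 in grx1, 2 in grx2 and 1 in gpx2. Over the 11 subunits gpx1 averaged 10.04 ± 0.07, gpx2 9.96 ± 0.07, grx1 10.01 ± 0.07, grx2 10.07 ± 0.05, yap1 9.54 ± 0.30 and glr1 9.64 ± 0.30, against 9.44 ± 0.24 in WT (SD, n = 6 cultures each).

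ATP7 had a lowest, median and highest level of 8.92, 9.03 and 9.17 in grx2, against 7.78, 8.21 and 8.48 in WT, so that no grx2 culture reached down to WT (difference 0.87). ATP20 had 7.12, 7.52 and 7.77 in grx2, against 5.91, 6.5 and 7.07 in WT (difference 1.05). CYC1 had 10.31, 10.66 and 11.10 in grx2, against 9.28, 9.80 and 10.18 in WT (difference 0.96).

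By these SDs WT varied more than gpx1, gpx2, grx1 and grx2, and all 6 comparisons share its cultures. Without WT Control replicate 3 the counts were 21 in gpx1, 10 in gpx2, 13 in grx1, 27 in grx2 and 1 in yap1, and without WT CHP replicate 3 the yap1 count was 3. Without WT CHP replicate 1, whose 0 min array held a high SRX1, they were 28, 23, 27, 32 and 8. The labels name no batch, and the genotype and the time at which its cultures were grown cannot be told apart.

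Other genes around the pathway were described from lists drawn from general knowledge of yeast, also chosen with earlier results known. Counts at 20 min in WT are read against 21.9% lower and 16.7% higher over all genes. Of 14 regulators 1 was lower and 3 higher. HAP4, the activating subunit of the HAP complex, stood at 7.37, 7.35 and 7.41 in WT CHP cultures, against 8.78, 8.42 and 8.12 in WT Control cultures (response -1.06, SE 0.22, adjusted p 2.56e-05). CAT8, an activator of gluconeogenic genes, rose by 0.86, RTG2, of the retrograde pathway, by 0.56 and ROX1, a repressor of hypoxic genes, by 0.55.

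In yap1 HAP4 stood at 6.91, 6.33 and 6.70 in CHP cultures, against 8.55, 8.36 and 8.52 in Control cultures, a response of -1.83 (difference from WT -0.77, adjusted p 0.0572, not called). HAP4 was lower at 20 min in 6 genotypes and gave -0.46 (adjusted p 0.0581) in grx2. In the yap1 difference ROX1 (2.19) and RTG3 (1.15) were higher and MIG1 (-2.13), a glucose repressor, and CAT8 (-1.34) lower.

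Of 43 genes that mature or assemble the complexes, 2 were lower and 8 higher in WT at 20 min, with a median of -0.03, and the largest were SDH6 (0.85), COX23 (0.76) and COX19 (0.75). In the yap1 difference, where 11.7% of all genes were lower and 11.5% higher, 12 of 43 were lower and 0 higher, with a median of -0.31, led by COX23 (-0.99), SCO1 (-0.93), which delivers copper to complex IV, and MSS51 (-0.93), the translational activator of COX1. Of the 8 complex IV subunits 5 were higher in this difference.

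Electron input and cytochrome genes split in WT, with 3 of 13 lower and 4 higher. CYB5, cytochrome b5 (-2.27), and NDE1, the main external NADH dehydrogenase (-1.29), fell. CCP1, cytochrome c peroxidase (1.79), rose, as did CYC3 (1.11) and CYT2 (0.76), which attach heme to the cytochromes of CYC1 and CYT1. In the yap1 difference CCP1 (-1.98), GUT2 (-1.81) and NDE2 (-1.60) were the largest.

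Of 8 heme synthesis genes 5 were lower in WT, led by HEM13 (-1.15), HEM1 (-0.94) and HEM14 (-0.71), and HEM12 was higher (0.38). Of 19 iron-sulfur cluster genes 3 were lower and 7 higher, with YAH1 (-1.72), ISU2 (1.57) and ISA1 (-1.33) the largest. In the yap1 difference YAH1, the mitochondrial ferredoxin, was higher by 2.24 (ISU1 by 1.07), and IBA57 gave -1.83. Of 18 carriers 3 were lower and 2 higher, with the citrate carriers CTP1 (-2.40) and YHM2 (-1.18) at the bottom and DIC1 (0.81) at the top.

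Of 21 paralogs, accessory subunits and bypass enzymes 3 were lower and 2 higher, with STF2 (1.68), COX26 (-0.90) and STF1 (0.66) the largest. CIT2, the peroxisomal citrate synthase, was higher in the yap1 difference (0.98). Of 7 pyruvate dehydrogenase genes only PDX1 was called in WT (0.38), and the kinase PKP2 was higher in the yap1 difference (1.41). Of 10 coenzyme Q genes COQ4 (0.56) and COQ3 (0.36) were higher in WT, and COQ2 (-0.89), COQ1 (-0.82) and COQ5 (-0.46) lower in the yap1 difference.

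Of the 8 genes in mitochondrial DNA, whose transcripts are little polyadenylated, COX3 alone was called in WT (-0.62, adjusted p 0.0485). None was called in the yap1 difference by limma, with 0 at an unadjusted p below 0.05.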

How the data were processed

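Expression was measured in 210 cultures-by-time samples of Saccharomyces cerevisiae. The authors deposited log2 values per probe set made with RMA, per the submitters' processing notes; the sources used here give no version or settings. Raw arrays were not used here. Of 9335 probe sets, those naming 1 gene were kept, 1 per gene by the highest mean over all arrays, leaving 5656 genes. Symbols were updated through gene identifiers to RefSeq R64. Array medians ran from 6.07 to 6.33, and the number of arrays limits the precision.

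limma 3.58.1 in R 4.3.3 fitted 70 group means (140 residual degrees of freedom, empirical Bayes at its defaults), with Benjamini-Hochberg adjustment over all genes and a threshold of 0.05. Successive samples of a culture entered the fit as independent; an alternative took up their correlation (0.264). P-values measure the spread between cultures. The fit was tested on simulated data.

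The members and all lists were chosen with earlier results of these data known. Values per culture are given for the 2 largest WT responses of each set at 20 min, for genes opposite to their set, and for the largest differences of response, up to 5 in each direction. Of other lists up to 3 genes are named. ATP4, ATP5 and QCR8 in yap1, RTG2, ROX1 and HEM12 in WT, CYC3, CYT2, RTG3 and HAP4 values, and the 0 min levels fall outside this rule and were chosen after they were seen. Alternatives were another scaling, block, gene filter, probe-set rule and empirical Bayes setting, fewer genotypes, subtraction of the 0 min difference, and each culture or doubtful array left out. Promoter and protein sequences were not used here.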

Additional observations from a re-analysis of the deposited data

Results flagged for a closer look

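The response of yap1 differed from that of WT by a test of the difference itself in 14 genes at 20 min. The differences, yap1 response minus WT response on the log2 scale, were 1.48 for QCR7, 1.38 for COX4, 1.27 for RIP1, 1.25 for COX9, 1.08 for ATP7, 1.00 for ATP20, 0.95 for QCR10, 0.93 for ATP14, 0.83 for COX5A, 0.82 for COX6 and 0.57 for COX8. They were -1.60 for CYC1, -1.13 for LSC2 and -1.12 for ACO1. At 12 min they were -2.29 for CYC1, -1.41 for ACO1, -1.02 for SDH1, -0.65 for CYT1, -0.61 for KGD2 and -0.48 for KGD1, and at 6 min 1.00 for ATP4. For grx2 at 20 min they were 1.38 for SDH3, 0.99 for CIT3, 0.84 for MDH1 and -0.70 for ACO1, of which the CIT3 value alone kept its call without the CHP replicate 2 array; the CIT3 signal in grx2 Control cultures was at the level of deleted genes in their own mutants.

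The WT response at 20 min differed from that at 6 min in 14 genes. The difference was 0.88 for CIT3, -1.69 for ACO1, -1.26 for CYT1, -1.20 for RIP1, -1.16 for QCR7, -1.11 for COX4 and -1.04 for QCR6. It was -0.80 for COX5A, -0.78 for QCR9, -0.72 for ATP14, -0.69 for IDH1, -0.55 for COX8, -0.53 for IDH2 and -0.46 for COX12.

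In the mean level of the 45 genes at 0 min, 1 culture lay far from the other 5 of its genotype in grx1 (9.90, below the others) and in yap1 (9.54, below the others). The gap passed Dixon's 95% critical value in these 2 of 7 genotypes, and chance flags about 1 in 20 groups.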

How the results depend on the processing

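Of 361 single calls, 6190 values under the alternatives gave 5580 with the same direction and call, 609 past the threshold no longer and 1 with the opposite sign (ATP5 in yap1 at 20 min, -0.0875 after the 0 min difference was subtracted). With the 0 min difference subtracted, lower counts were 1 at 12 min and 17 at 20 min in WT and 13 in glr1. In yap1 the higher count became 2, and in the yap1 difference it became 4 at 20 min, with 3 lower at 12 min. This subtraction adds the spread of the 0 min arrays. With the yap1 Control replicate 1 array at 0 min left out as well, the counts were 8 and 8 lower at 12 and 20 min and 1 higher in yap1, and 4 higher at 20 min and 2 lower at 12 min in the difference. With the high-SRX1 WT array at 0 min left out instead, they were 1 and 14 lower at 12 and 20 min in WT and 2 higher at 20 min in the yap1 difference. Other moves were 6 lower in WT at 12 min with centred arrays, 20 for the late test with quantile normalization, 2 higher in yap1 with the mean of probe sets, and 16 lower in grx2 without the CHP replicate 2 array. Centring moved the median response of all genes by 0.14 in WT at 12 min, 0.10 in WT at 20 min and 0.18 in grx2 at 20 min; the causes were not tested.

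With 1 culture left out at a time, lower counts ran from 4 to 13 (WT, 12 min), 23 to 28 (WT, 20 min), 7 to 10 (late test), 11 to 13 (yap1, 12 min), 10 to 14 (yap1, 20 min), 16 to 23 (glr1), 24 to 27 (gpx1), 23 to 25 (gpx2), 25 to 27 (grx1) and 16 to 35 (grx2). Higher counts ran from 2 to 5 in yap1 and from 7 to 15 in the yap1 difference at 20 min, where the lower count stayed at 3; at 12 min it ran from 3 to 6. At 0 min they ran from 21 to 30 (gpx1), 10 to 24 (gpx2), 13 to 27 (grx1), 27 to 32 (grx2) and 1 to 8 (yap1).

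The 4 genes higher in the later CHP arm of yap1 at 0 min became 7 with the culture as a random block, 9 with the replicate block, 0 with fewer genotypes in the fit, 0 without the Control replicate 1 array, and 0 to 15 with 1 culture left out.

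Whether replicate numbers pair the samples was not settled, as the check was mixed. Deviations of same-numbered cultures correlated between -0.44 and 0.70, above 0.1 in 12 of 21 pairs, and 8 of 21 correlated best with their own number. With the replicate block the lower counts were 12 and 30 in WT at 12 and 20 min, 15 for the late test, 16 and 15 in yap1, and 14 higher and 3 lower in the yap1 difference.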
